A study of Arabidopsis thaliana with 16 samples.

Results

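The transcripts described here are those of 10 plastid-encoded genes of the chloroplast NDH complex, ndhA, ndhC, ndhD, ndhE, ndhF, ndhG, ndhH, ndhI, ndhJ and ndhK, measured in shoots and roots of Arabidopsis thaliana. They were chosen by name, each gene being paired with 1 probe set of the Affymetrix ATH1 array, and they are 10 of the 69 plastid-encoded genes with a probe set of their own among 22810 probe sets in all. ndhB lies in the inverted repeat, so that its probe set is paired with 2 gene copies, and it was not analysed here. The NDH complex sits in the thylakoid membrane, takes electrons from ferredoxin and passes them to plastoquinone, and so carries part of the cyclic electron flow around photosystem I. It is related to respiratory complex I and is built from subunits made in the plastid and subunits imported from the cytosol. Several of the plastid transcripts are edited by nuclear-encoded proteins before they are translated, and the best known case is ndhD, whose start codon is made by editing.

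The arrays came from 2 experiments, with 4 groups of 2 arrays in each. In the older plants, wild type was grown in hydroponic culture to an age of 7 weeks, the first 4 weeks in control medium and the last 3 weeks in medium without Zn (Zn-deficient) or again in control medium, and roots and shoots were harvested from both. In the younger plants, hma2 hma4 or wild type was grown to 21 days on agar of control medium, 7 days before and 14 days after a transfer to vertical plates, and roots and shoots were again harvested. The hma2 hma4 plants are a double mutant of HMA2 and HMA4, P-type ATPases that export Zn from root cells and so supply the shoot. The study compared Zn-deficient with control plants, and the mutant with wild type, within each tissue. The labels do not say whether the arrays of a group came from separate plants or cultures, and the p-values therefore cover only array-to-array spread, which may be technical.

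Signals are MAS5 values on a linear scale, each array having been scaled by the authors to the same trimmed mean. Changes are log2 differences of the signal plus 8 units, tested with limma's moderated test and adjusted by Benjamini-Hochberg over 17059 probe sets, and a probe set is called at an adjusted p under 0.05. The background was set at 52.2 signal units, the highest signal of the bacterial TrpnX probe sets on any array, and a gene with no array of a group above it has only an upper bound there. The 8 units added are the 10th percentile of all signals. The signals of different genes were not set against each other, because probe sets differ in their response. HMA2 and HMA4 themselves were not analysed here. Median signals per array were 136 to 209 for the 7-week plants and 172 to 217 for the 21-day plants. A listed gene counts as measured here if the annotation used paired a probe set with it alone. The labelled tissues matched their markers. The 7 measured genes of 44 nuclear photosynthesis genes summed to 426 to 707 units in 7-week roots and to 80765 to 115625 units in 7-week shoots, and to 2029 to 2300 units in 21-day roots and 108514 to 132258 units in 21-day shoots. EXPA7 and EXPA18, expansins of root hair cells and the only measured genes of 15 root markers, summed to 769 to 1814 units in the 4 root groups and to 97.8 to 219 units in the 4 shoot groups. The 2 experiments differed in other ways: a probe set for 25S ribosomal RNA gave 31.0 to 450 units on the 7-week arrays and 1613 to 6920 units on the 21-day arrays, and within the 21-day arrays 1613 to 4240 units in hma2 hma4 and 5387 to 6920 units in wild type.

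The genes lie in 3 places on the plastid genome. ndhH, ndhA, ndhI, ndhG, ndhE and ndhD follow each other in the small single-copy region, where psaC, a photosystem I gene, stands between ndhE and ndhD. ndhF lies at the other end of that region and has its own transcript. ndhC, ndhK and ndhJ are neighbours in the large single-copy region. The products of ndhH, ndhI, ndhJ and ndhK belong to the arm on the stromal side, in which ndhI and ndhK encode iron-sulfur subunits. The products of ndhA, ndhC, ndhD, ndhE, ndhF and ndhG form the membrane arm, and those of ndhD and ndhF resemble antiporters.

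Among the genes of the stromal arm, ndhJ had its highest signals in 7-week shoots. At 7 weeks its signal was 121 and 109 in Zn-deficient roots, against 66.1 and 72.0 in control roots, and 4280 and 2236 in Zn-deficient shoots, against 8479 and 4634 in control shoots. At 21 days it was 11.4 and 5.68 in hma2 hma4 roots, against 6.38 and 30.2 in wild-type roots, and 593 and 655 in hma2 hma4 shoots, against 525 and 635 in wild-type shoots. All root arrays lay under all shoot arrays, and the 4 root arrays of the 21-day plants lay under background.

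ndhK, its neighbour, also had its highest signals in 7-week shoots. At 7 weeks the signal of ndhK was 128 and 109 in Zn-deficient roots, against 116 and 147 in control roots, and 2947 and 775 in Zn-deficient shoots, against 7280 and 3160 in control shoots. The 21-day signals were 28.7 and 30.5 in hma2 hma4 roots, against 50.6 and 27.0 in wild-type roots, and 404 and 472 in hma2 hma4 shoots, against 271 and 335 in wild-type shoots. The 7-week shoot groups had the highest values without overlap, and the 21-day roots lay under background.

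ndhI, the other iron-sulfur subunit, varied little among shoots. At 7 weeks its signal was 1723 and 2192 in Zn-deficient roots, against 1767 and 2013 in control roots, and 13230 and 12212 in Zn-deficient shoots, against 17279 and 12861 in control shoots. The 21-day plants had 1493 and 1148 in hma2 hma4 roots, against 1340 and 985 in wild-type roots, and 15061 and 15649 in hma2 hma4 shoots, against 15306 and 16100 in wild-type shoots. Neighbouring shoot groups overlapped throughout the order of means, and all root arrays lay below all shoot arrays.

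ndhH encodes a subunit on the quinone side of the stromal arm. Its signal at 7 weeks was 67.5 and 69.6 in Zn-deficient roots, against 60.3 and 78.9 in control roots, and 403 and 106 in Zn-deficient shoots, against 844 and 220 in control shoots. In 21-day plants ndhH had 41.8 and 23.6 in hma2 hma4 roots, against 1.11 and 10.8 in wild-type roots, and 85.6 and 237 in hma2 hma4 shoots, against 124 and 182 in wild-type shoots. Neighbouring shoot groups could not be ordered beyond their spread, and the 21-day roots lay under background.

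In the membrane arm, ndhA had 417 and 593 units in 7-week Zn-deficient roots, against 435 and 433 in control roots, and 4119 and 3310 in Zn-deficient shoots, against 6398 and 4563 in control shoots. In 21-day plants ndhA had 163 and 214 units in hma2 hma4 roots, against 174 and 106 in wild-type roots, and 3471 and 4523 in hma2 hma4 shoots, against 5039 and 4804 in wild-type shoots. Its roots at 21 days lay under its roots at 7 weeks, whereas the shoots of the 2 ages overlapped.

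ndhC stood apart from the other members in the order of its groups. Its signal was 807 and 946 in 7-week Zn-deficient roots, against 810 and 728 in control roots, and 5061 and 5207 in Zn-deficient shoots, against 6390 and 5916 in control shoots. At 21 days it was 1485 and 1472 in hma2 hma4 roots, against 1802 and 1601 in wild-type roots, and 9279 and 8092 in hma2 hma4 shoots, against 9362 and 9737 in wild-type shoots. The 21-day groups were above the 7-week groups in both tissues, without overlap.

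ndhD showed the opposite order. At 7 weeks its signal was 677 and 742 in Zn-deficient roots, against 628 and 608 in control roots, and 8884 and 7428 in Zn-deficient shoots, against 13159 and 10558 in control shoots. The signal at 21 days was 129 and 123 in hma2 hma4 roots, against 173 and 121 in wild-type roots, and 1327 and 1779 in hma2 hma4 shoots, against 1830 and 2333 in wild-type shoots. All 7-week arrays of a tissue were above all 21-day arrays of it.

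ndhE and ndhG, small neighbouring membrane subunits, had their highest signals in 7-week control shoots as well. ndhE had 136 and 116 units in 7-week Zn-deficient roots, against 86.7 and 108 in control roots, and 1666 and 717 in Zn-deficient shoots, against 3032 and 2558 in control shoots. At 21 days ndhE had 56.9 and 51.7 units in hma2 hma4 roots, against 34.6 and 51.8 in wild-type roots, and 295 and 522 in hma2 hma4 shoots, against 351 and 462 in wild-type shoots. In 21-day roots only 1 of the 4 ndhE arrays was above background. ndhG had 119 and 111 units in 7-week Zn-deficient roots, against 120.0 and 103 in control roots, and 702 and 443 in Zn-deficient shoots, against 1666 and 1547 in control shoots. At 21 days ndhG had 40.6 and 2.17 units in hma2 hma4 roots, against 41.1 and 4.24 in wild-type roots, and 78.8 and 232 in hma2 hma4 shoots, against 165 and 192 in wild-type shoots. Its 21-day roots lay under background and its arrays there differed up to 18.7-fold within a group.

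ndhF was near or below background in most groups. At 7 weeks its signal was 3.35 and 5.31 in Zn-deficient roots, against 15.4 and 29.5 in control roots, and 112 and 72.6 in Zn-deficient shoots, against 187 and 91.2 in control shoots. At 21 days it was 2.26 and 18.4 in hma2 hma4 roots, against 17.9 and 5.62 in wild-type roots, and 25.7 and 36.3 in hma2 hma4 shoots, against 17.0 and 38.2 in wild-type shoots. Only the 7-week shoots were above background, and ndhF was left out of the 21-day tests by the filter on dim probe sets. Over all genes, the highest group mean was in 7-week control shoots for 8 genes and in 21-day wild-type shoots for 2, ndhI and ndhC.

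**Figure D1:**
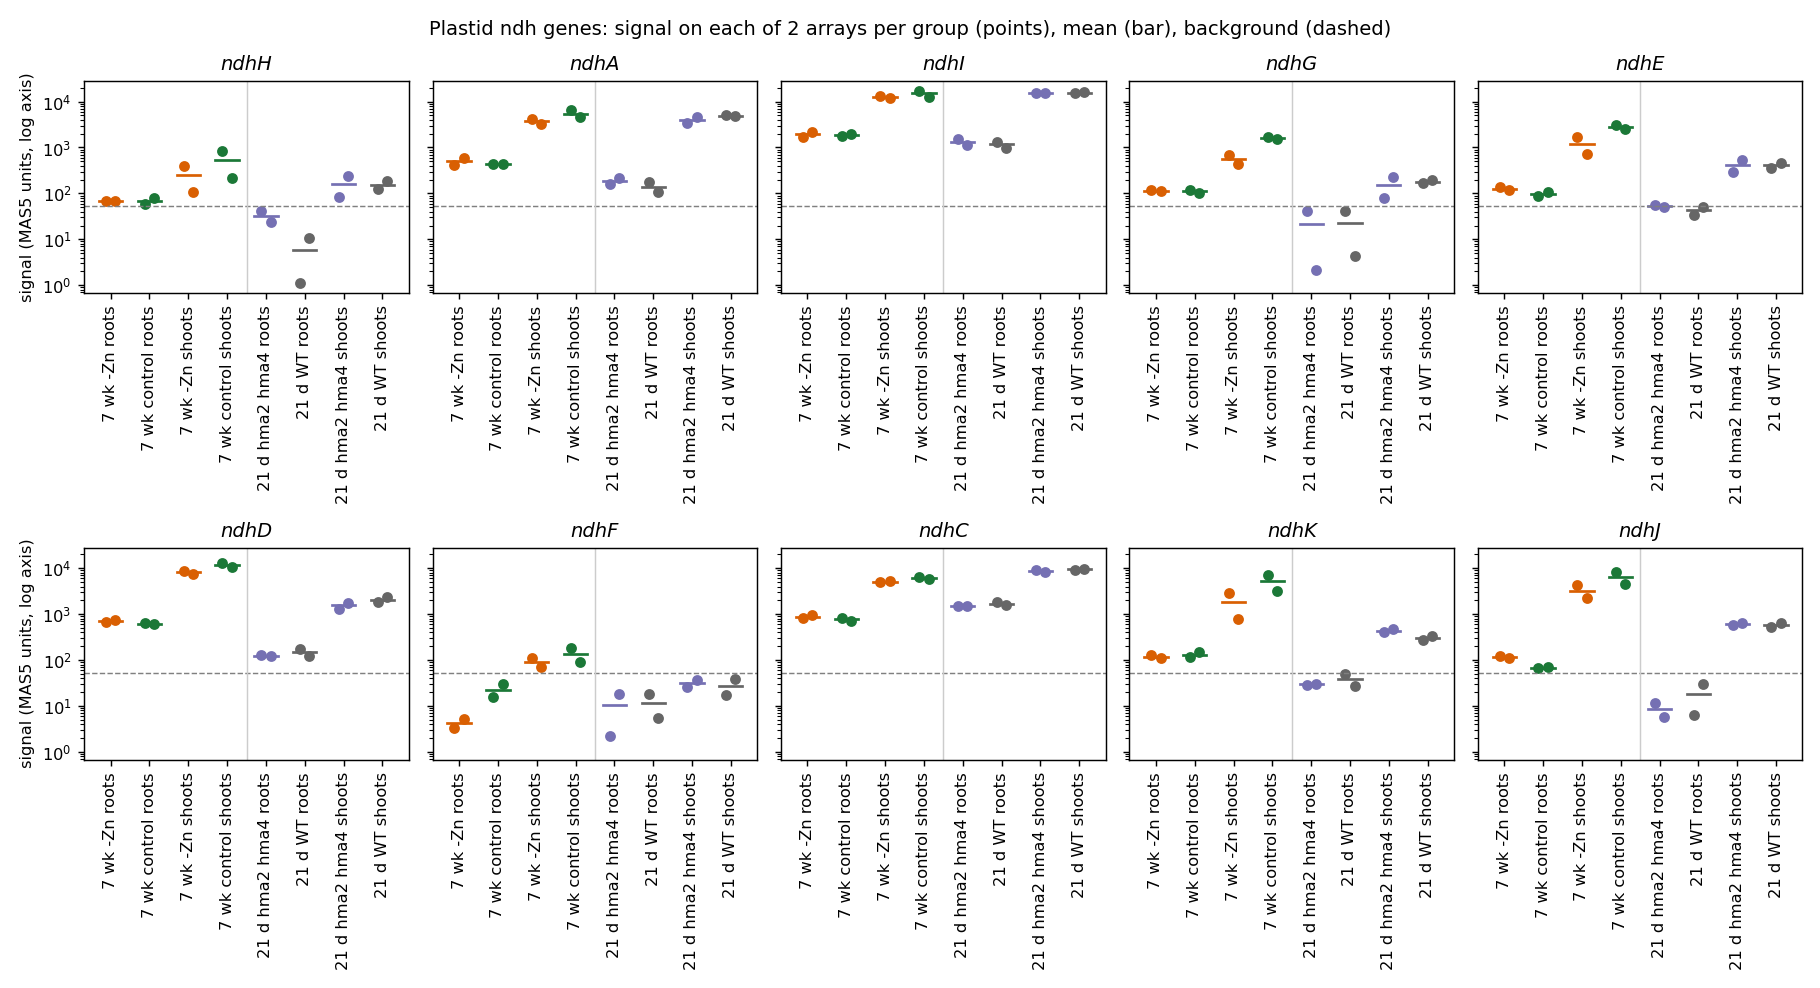
Signal of each ndh gene (MAS5 units, log axis) on the 2 arrays of each group (points) with the group mean (bar); the dashed line is the background of 52.2 units, and the vertical line parts the 7-week (7 wk) from the 21-day (21 d) plants. Root arrays lie below the shoot arrays of the same plants except for ndhF in 21-day wild type, and 6 genes have no 21-day wild-type root array above background.

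The comparison of roots with shoots asked how far transcripts of a complex of green tissue were present in roots. The ndh genes were lower in roots in all 4 comparisons. In 7-week Zn-deficient plants 9 of 10 were called lower, where 18.4% of all probe sets were, and in 7-week control plants 10 of 10 were, where 19.8% were. In 21-day hma2 hma4 and in 21-day wild type, 9 of the 9 genes tested were called lower, where 21.6% of all probe sets were in each. Calls in either direction covered 50.8%, 54.9%, 61.4% and 61.1% of all probe sets in the same order of comparisons. Root and shoot arrays did not overlap for 10, 10, 9 and 9 of the genes tested, all lower in roots, where 27.6%, 30.9%, 27.4% and 28.9% of all probe sets lay lower in this way. The median changes of the ndh genes were -2.94 and -3.69 in 7-week Zn-deficient and control plants, and -3.53 and -3.60 in 21-day hma2 hma4 and wild type, whereas the medians of all probe sets tested lay between 0.28 and 0.36. With the genes whose roots lay under background set at their bounds, the ndh medians were -2.79 and -3.69 at 7 weeks and -3.06 and -2.95 at 21 days. The gene not called was ndhH in Zn-deficient plants, which differed by -1.50 ± 0.69 (SE) with an adjusted p of 0.0985 in limma. It was called after quantile normalization (-1.81, adjusted p 0.0376) and after median centring (-1.92, adjusted p 0.0380). The arrays were scaled to 1 mean, and centring them on their medians instead moves the root values by 0.23 to 0.42 on the log2 scale, towards lower roots.

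ndhJ had the largest change of the 10 genes in both 7-week comparisons. In 7-week control plants ndhJ was 81.5-fold lower in roots, a log2 change of -6.35 ± 0.38 (SE) with an adjusted p of 3.03e-06 in limma over 2 arrays a group. Its control roots, at 66.1 and 72.0 units, lay little above the background of 52.2 units, so the size of this fold is uncertain. Without the 8 units added it was 90.9-fold. In 7-week Zn-deficient plants its change was -4.66 ± 0.38 with an adjusted p of 2.00e-05. In the 21-day plants its roots lay under background, and ndhJ was at least 11.9-fold lower in hma2 hma4 roots and at least 11.0-fold lower in wild-type roots than in the shoots. ndhK, beside it, fell by 5.11 ± 0.59 on the log2 scale in 7-week control roots (adjusted p 0.000138 in limma) and was at least 8.35-fold lower in 21-day hma2 hma4 roots and 5.77-fold lower in wild-type roots. In 7-week Zn-deficient roots ndhK changed by -3.59 ± 0.59. ndhC, the neighbour on the other side, had smaller changes than both at 7 weeks, -2.54 ± 0.21 and -2.99 ± 0.21 in Zn-deficient and control plants. At 21 days ndhC had -2.54 ± 0.12 and -2.49 ± 0.12 in hma2 hma4 and wild type. In wild type this was 5.60-fold, close to the bound of 5.77-fold for ndhK. The adjusted p of ndhC was at most 2.11e-05 in limma.

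In the small single-copy region, ndhA changed by -2.87 ± 0.28 and -3.62 ± 0.28 in 7-week Zn-deficient and control plants, and by -4.35 ± 0.22 and -5.10 ± 0.22 in 21-day hma2 hma4 and wild type. ndhI followed with -2.70 and -2.98 at 7 weeks, against -3.54 and -3.76 at 21 days in the same order. For both genes the difference between tissues was wider in the 21-day plants. ndhE had -3.05 ± 0.38 and -4.74 ± 0.38 at 7 weeks. At 21 days ndhE was at least 7.71-fold lower in wild-type roots, which lay under background, and only 1 of its 2 hma2 hma4 root arrays was above background. ndhD stayed between -3.50 and -4.24 in all 4 comparisons. ndhG had -2.21 ± 0.28 and -3.76 ± 0.28 at 7 weeks and was at least 2.59-fold lower in hma2 hma4 roots and 3.40-fold lower in wild-type roots at 21 days. ndhF was at least 1.73-fold and 2.50-fold lower in 7-week Zn-deficient and control roots. These differences between experiments were not tested, since age, culture and array run cannot be told apart.

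The calls of ndhH and ndhG depended on single arrays, and the adjusted p of limma follows each change here. Their 21-day roots lay under background, so the changes fitted there are no exact values. Without replicate 1 of the 7-week control shoots, ndhH had a change of -1.56 (0.0980) in that comparison, and without replicate 1 of the control roots -2.34 (0.0689). In 21-day hma2 hma4, ndhH had -1.24 (0.114) without replicate 2 of the shoots and -1.61 (0.0706) without replicate 2 of the roots, and ndhG had -1.97 (0.108) and -1.57 (0.131) without the same arrays. In 21-day wild type, ndhG had -1.92 (0.0837) without replicate 2 of the roots. Conversely, ndhH was called in 7-week Zn-deficient plants, with -2.43 (0.0321), without replicate 2 of the shoots.

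**Figure D2:**
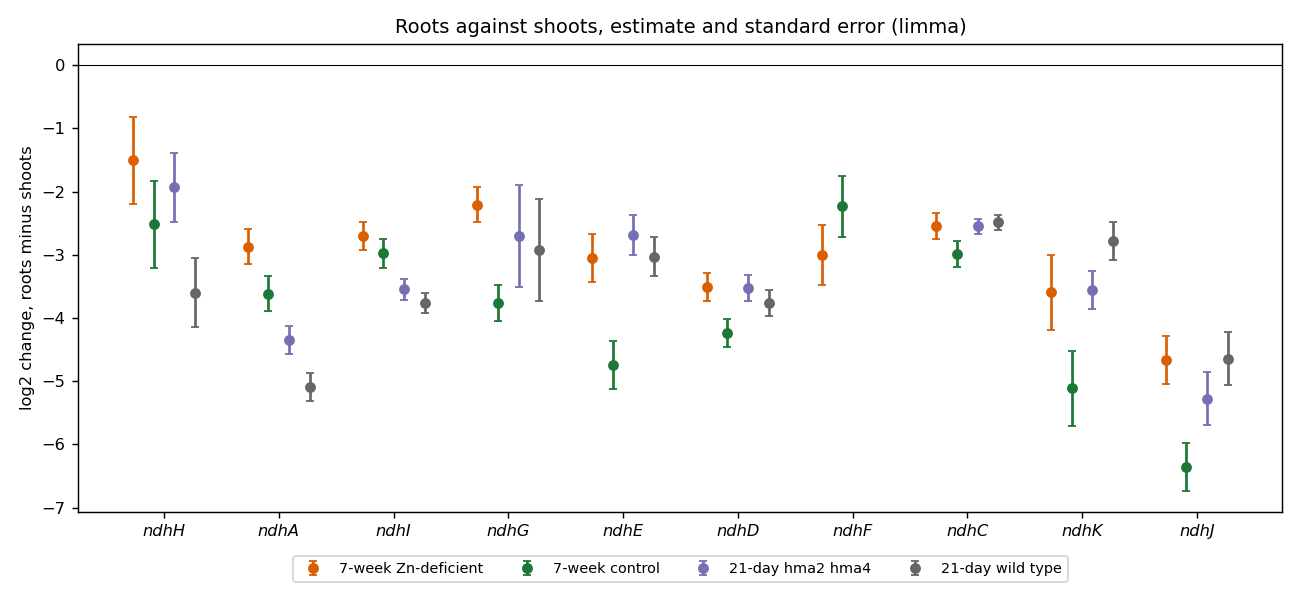
Log2 change between roots and shoots (y axis, roots minus shoots, signal plus 8 units) for each ndh gene in the 4 pairs of groups, with the standard error of the limma fit; ndhF was not tested at 21 days. Where roots lay under background, as for ndhH, ndhG, ndhJ and ndhK at 21 days, ndhE in 21-day wild type and ndhF at 7 weeks, the point is a fitted value and no exact difference. All values lie below 0, from -1.50 for ndhH in 7-week Zn-deficient plants to -6.35 for ndhJ in 7-week control plants.

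Other genes of the complex and of the photosynthetic apparatus gave the scale of these differences. Of 20 listed loci for nuclear NDH subunits 4 had a probe set paired with 1 gene: NdhL, a subunit that anchors the stromal arm, NdhN, a subunit of the stromal arm, NdhS, which binds ferredoxin, and AT2G04039, the locus of NdhV, which helps ferredoxin binding. All 4 were called lower in roots in each of the 4 comparisons, with medians of the fitted values of -4.56 and -5.41 at 7 weeks in Zn-deficient and control plants and of -5.89 and -5.96 at 21 days in hma2 hma4 and wild type. NdhL and AT2G04039 had no root array above background in 7-week control plants or in either 21-day genotype, and with both at their bounds these 3 medians were -5.25, -5.11 and -5.14. NdhL was at least 95.7-fold lower in 7-week control roots (adjusted p 1.54e-06 in limma), and AT2G04039 at least 37.9-fold lower. NdhS, with all its root arrays above background, changed by -4.97 ± 0.31 in those plants. The 7 nuclear photosynthesis genes had medians of -7.39 and -7.92 at 7 weeks, or -7.24 and -7.87 with 3 and 4 of them at their bounds, and of -6.24 and -6.11 at 21 days. The 58 other plastid-encoded genes tested had medians of -2.204, -2.97, -2.77 and -3.02 in the same order, and 41, 47, 57 and 57 of them were called lower. Among them, the 15 photosystem II genes had a median of -4.04 in 7-week control plants, and the 15 ribosomal protein genes one of -1.23. The ndh median of that comparison lay between these classes, as the plot of gene classes shows. In these bulk samples, fewer cells or plastids with these transcripts and fewer transcripts in each cannot be told apart.

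Of 14 listed loci for assembly, editing and expression factors, 5 were measured, all of them factors for editing of ndh transcripts. CRR21 and OTP85 edit ndhD, CRR22 and CRR28 edit ndhB and ndhD sites among others, and OTP84 edits sites in ndhB and ndhF among others. All 5 were called lower in roots at 21 days in both genotypes. Most of their root signals lay under background. CRR21 was at least 10.6-fold lower in hma2 hma4 roots (adjusted p 2.26e-07 in limma), and in wild type 1 of its 2 root arrays was above background. CRR28 was at least 3.71-fold and 3.76-fold lower and OTP85 at least 1.29-fold and 1.67-fold lower in hma2 hma4 and wild-type roots. OTP84, above background on all these arrays, changed by -1.67 ± 0.29 in hma2 hma4 and by -1.70 ± 0.29 in wild type. CRR22 changed by -1.44 ± 0.27 in hma2 hma4 and was at least 4.88-fold lower in wild-type roots. At 7 weeks only OTP84 passed the filter, with -0.37 ± 0.30 in Zn-deficient plants and -0.68 ± 0.30 in control plants, neither of which was called. PGRL1B, a partner of PGR5 in the other route of cyclic electron flow and the only measured gene of 6 listed for that route, was called lower in roots in all 4 comparisons, by -1.57, -2.02, -1.02 and -1.59.

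Zn deficiency was compared with control medium in 7-week shoots first. None of the 10 ndh genes was called in limma, where 0.92% of all probe sets were called in either direction and 0.152% were called lower. All 10 estimates were below 0, with a median of -0.78, and 5 had an unadjusted p under 0.05, as had 2849 of all 17059 probe sets. The Zn-deficient and control arrays did not overlap for 7 genes, all lower with Zn deficiency, where 21% of all probe sets lay lower without overlap.

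The lowest values belonged to ndhK and to the ndhG and ndhE pair. ndhG had 702 and 443 units in Zn-deficient shoots, against 1666 and 1547 in control shoots, a change of -1.51 ± 0.28 (SE) with an adjusted p of 0.0528 in limma. ndhG passed the threshold under 4 of the other settings tried, with adjusted p from 0.0280 to 0.0450, and ndhE under 1 (0.0375). ndhK changed by -1.66 ± 0.59 (adjusted p 0.211) and ndhE by -1.34 ± 0.38 (adjusted p 0.132). ndhH and ndhJ had changes of -1.02 each, with standard errors of 0.69 and 0.38. ndhA, ndhD and ndhF had changes of -0.55, -0.54 and -0.50, and ndhC and ndhI of -0.26 and -0.23. ndhI alone turned direction in another scaling, to 0.0060 after quantile normalization.

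Other plastid transcripts had estimates below 0 as well. The 58 other plastid-encoded genes tested were all below 0, with a median of -0.52, and 0 of them were called, 11 having an unadjusted p under 0.05 in limma. For 30 of these 58 the Zn-deficient arrays lay below the control arrays without overlap. Among the classes of these genes the 6 ATP synthase genes had the lowest median, -0.99. All probe sets tested had a median of -0.02. Of the nuclear NDH subunits, NdhL had -1.07 ± 0.34, AT2G04039 -0.88 ± 0.60, NdhN -0.86 ± 0.30 and NdhS 0.17 ± 0.31, none of them called. The 7 nuclear photosynthesis genes were all below 0 with a median of -0.34, and 6 of them lay lower without overlap. Their summed signal was 80765 and 89519 units in Zn-deficient shoots, against 115625 and 105924 units in control shoots.

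The arrays within each shoot group differed along the same axis. Replicate 1 was above replicate 2 for 9 of 10 ndh genes in Zn-deficient shoots, with a median ratio of 1.57, and for 10 of 10 in control shoots, with a median ratio of 1.37. The other plastid-encoded genes had median ratios of 1.66 and 1.42 on those arrays, and all probe sets 1.15 and 0.996. Of all probe sets, 61.6% and 49.4% were higher in replicate 1. Without replicate 1 of the control shoots the ndh median was -0.38, and without replicate 2 of the Zn-deficient shoots it was -0.40. Without replicate 2 of the control shoots it was -1.22, and without replicate 1 of the Zn-deficient shoots it was -1.14. Replicate 1 was the higher in both groups, so leaving out an array of 1 group alone also moves the median by the difference between replicates. The ratio of 3' to 5' actin probe sets, a measure of RNA integrity and labelling, was 8.57 and 1.74 in Zn-deficient shoots, against 2.70 and 2.37 in control shoots. Another pair of actin probe sets gave 1.83 and 1.83 in Zn-deficient shoots, against 2.85 and 1.55 in control shoots, and did not set the first of the Zn-deficient arrays apart. The part of RNA integrity in the result was not tested.

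**Figure D3:**
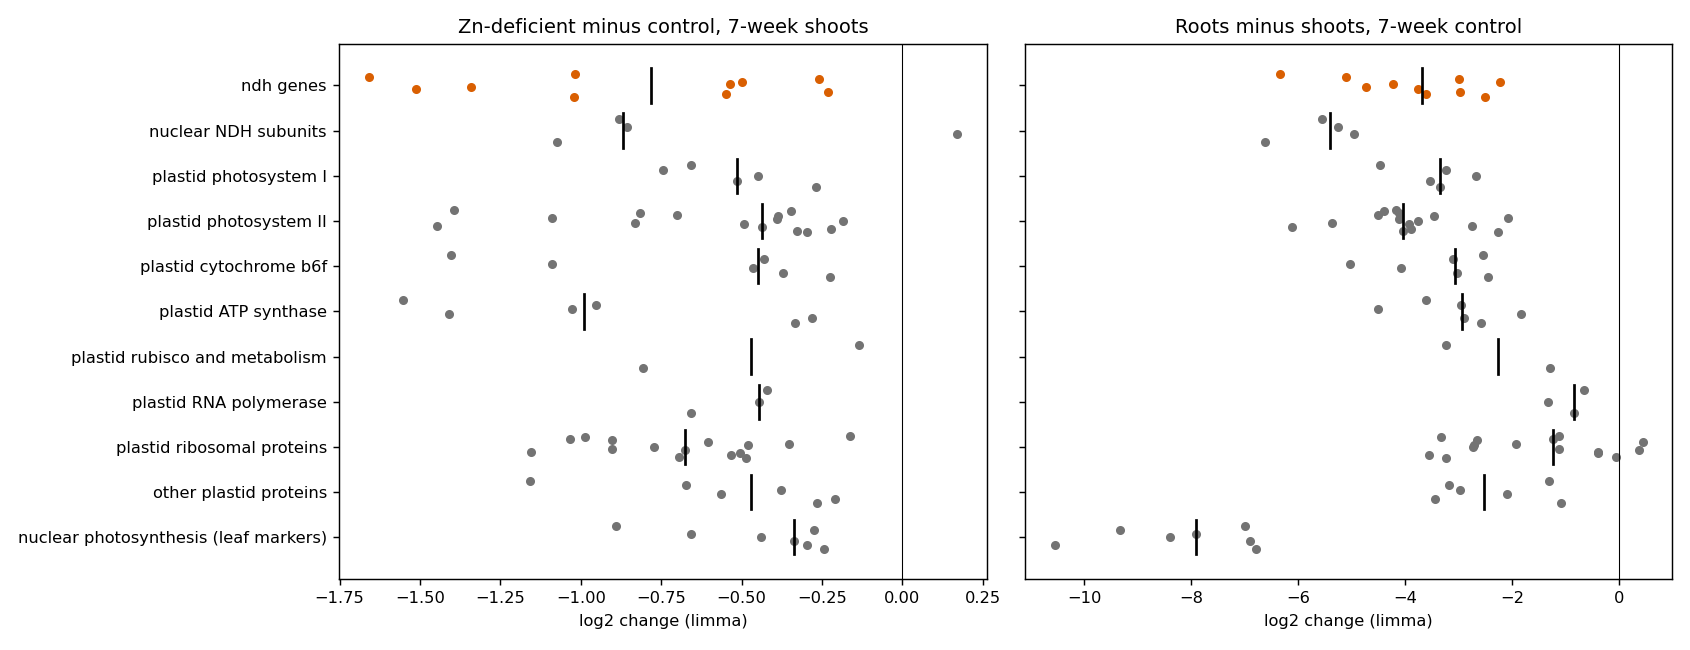
Log2 change of each gene (points) and median of its class (bar) for Zn-deficient minus control shoots at 7 weeks (left) and for roots minus shoots in 7-week control plants (right). The ndh genes, in orange, have medians of -0.78 and -3.69, and all plastid-encoded classes lie below 0 on the left.

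In 7-week roots, Zn deficiency gave no call among the 10 ndh genes, where 0.106% of all probe sets were called, 394 probe sets having an unadjusted p under 0.05 in limma. The median change was 0.11, with 7 estimates above 0 and 3 below. ndhJ had the highest, 0.68 ± 0.38, and its 121 and 109 units in Zn-deficient roots did not overlap with the 66.1 and 72.0 units in control roots. ndhE and ndhD also lay higher without overlap, by 0.35 ± 0.38 and 0.20 ± 0.22, and 17.6% of all probe sets did so. ndhF had -1.27 ± 0.48 (unadjusted p 0.0273), but all its root arrays lay under background. The other plastid-encoded genes had a median of 0.09.

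The difference between the responses of roots and shoots to Zn deficiency was tested as an interaction, and 0 of 10 ndh genes were called, where 0.0117% of all probe sets were. It was above 0 for 9 of 10 genes with a median of 0.88, and 4 had an unadjusted p under 0.05, as had 1514 of all 17059 probe sets in limma. ndhJ and ndhE had interactions of 1.69 ± 0.54 each (adjusted p 0.408), and ndhG of 1.56 ± 0.40 (adjusted p 0.345). The 58 other plastid-encoded genes were all above 0 with a median of 0.69, and all 4 nuclear NDH subunits were above 0 with a median of 1.08.

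The hma2 hma4 mutant was compared with wild type at 21 days on control medium. In shoots none of the 9 ndh genes tested was called, where 0.299% of all probe sets were, and none of the 9 had an unadjusted p under 0.05 in limma, as 1638 of all 17059 probe sets had. The median change was -0.06, with estimates between -0.43 for ndhD and 0.52 for ndhK. ndhD had 1327 and 1779 units in hma2 hma4 shoots, against 1830 and 2333 in wild-type shoots, a change of -0.43 ± 0.21 (adjusted p 0.569 in limma). ndhK had 404 and 472 units in hma2 hma4 shoots, against 271 and 335 in wild-type shoots, a change of 0.52 ± 0.30 (adjusted p 0.642 in limma). Of the 9 genes, 3 lay lower and 1 higher in hma2 hma4 without overlap, where 21.1% and 15.8% of all probe sets did. The other plastid-encoded genes had a median of -0.09.

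In 21-day roots none of 9 was called either, where 0.00586% of all probe sets were, and 1 had an unadjusted p under 0.05 in limma, as had 629 of all 17059 probe sets. The median was -0.14. However, ndhH, ndhG, ndhJ and ndhK had no root array above background in either genotype. ndhE had 1 such array in hma2 hma4 and none in wild type. Only ndhA, ndhC, ndhD and ndhI were above background on all these root arrays. The absence of calls, the median and the interaction below therefore say little about the other genes. The gene with the low unadjusted p was ndhH, at 1.602 ± 0.55 (adjusted p 1.00), with 41.8 and 23.6 units in hma2 hma4 roots, against 1.11 and 10.8 in wild-type roots, all under background. ndhC, well above background, changed by -0.20 ± 0.12, and ndhI by 0.19 ± 0.16. The interaction of genotype with tissue was called for 0 of 9 genes, where 0.0469% of all probe sets were, with 1 unadjusted p under 0.05, that of ndhA at 0.75 ± 0.31. Nuclear NDH subunits stayed between -0.16 and -0.04 in shoots and between -0.45 and 0.01 in roots, none called. The ends of the root range belonged to NdhL and AT2G04039, which had no root array above background in either genotype. NdhS, with all these root arrays above background, changed by -0.09 ± 0.19 in roots.

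**Figure D4:**
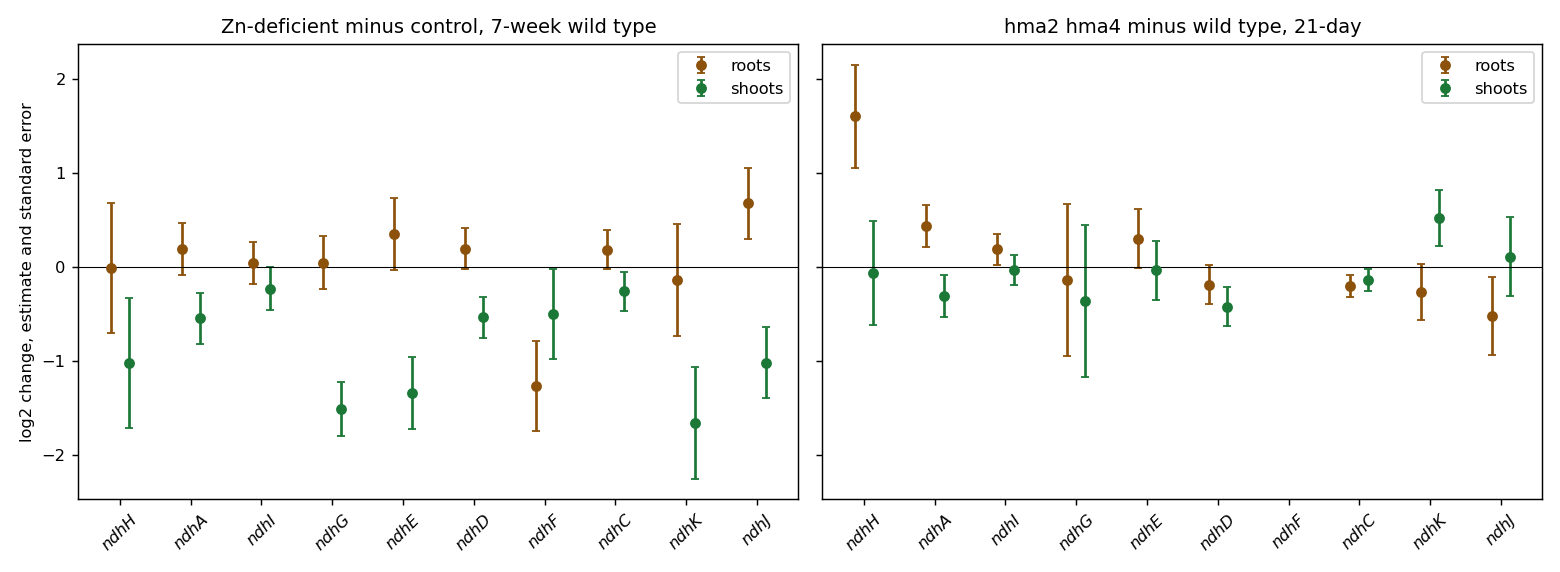
Log2 change with standard error (limma) of each ndh gene for Zn-deficient minus control plants at 7 weeks (left) and hma2 hma4 minus wild type at 21 days (right), in roots and shoots. With Zn deficiency the shoot values lie between -0.23 and -1.66, and in hma2 hma4 shoots between -0.43 and 0.52; none was called. The root points of ndhF at 7 weeks and of ndhH, ndhG, ndhJ and ndhK at 21 days rest on signals under background. Those of ndhE at 21 days do so in part.

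The 7-week control plants and the 21-day wild type were both grown on control medium, and their ndh signals were set side by side after the values had been seen, as a description with no test. In shoots, 7 of 10 ndh genes lay higher at 7 weeks without overlap, and 1 lay lower, where 32.0% and 41.5% of all probe sets did. In roots the counts were 8 and 1, where 36.7% and 40.3% did. The median difference of the ndh genes was 2.27 in shoots and 1.62 in roots, that of the 59 other plastid-encoded genes 0.96 and 1.26, and that of all probe sets -0.13 and -0.03. In 21-day wild-type roots 6 of the ndh genes had no array above background, so their root median is no exact value.

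The spread among ndh genes was wide, also between neighbours. In shoots ndhK was 15.5-fold and ndhJ 10.7-fold higher at 7 weeks, while ndhC beside them was 1.55-fold lower. In the small single-copy region ndhG, ndhE and ndhD were 8.68-fold, 6.80-fold and 5.69-fold higher, and psaC, which stands among them and was picked out after its values had been seen, was 17.6-fold higher. ndhI and ndhA, next to ndhG, had differences of only -0.07 and 0.13 with overlapping arrays. ndhH, beyond them, was 2.78-fold higher. In roots ndhC had a difference of -1.14, and ndhI, ndhA and ndhD had 0.71, 1.62 and 2.03. The other 6 genes had 21-day roots under background. Age, culture and array run cannot be told apart here, and the 25S ribosomal RNA signal and the actin ratios moved with the experiment as well. The first of the 3' to 5' actin ratios given above was 1.74 to 8.57 on the 7-week arrays and 17.3 to 30.3 on the 21-day arrays. The other actin pair gave 1.36 to 2.85 and 2.45 to 3.68. The part of RNA integrity in the differences between experiments was not tested.

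**Figure D5:**
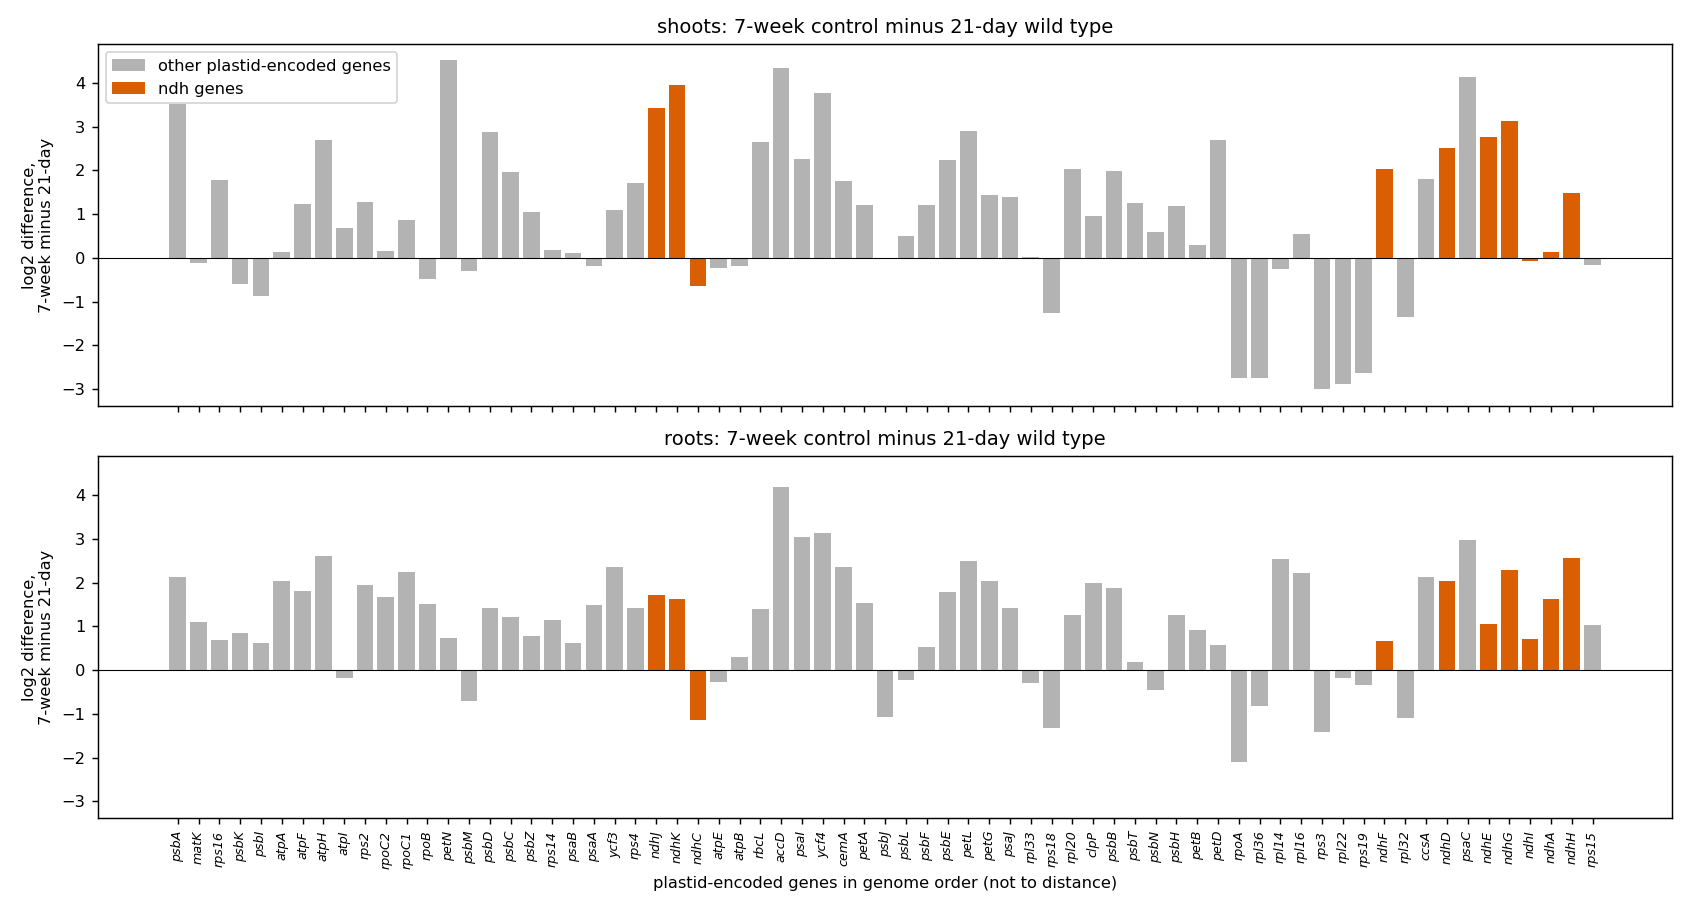
Difference between 7-week control and 21-day wild type (y axis, log2, signal plus 8 units) for the plastid-encoded genes in genome order (x axis, not to distance), in shoots (top) and roots (bottom), with ndh genes in orange. ndhJ and ndhK reach 3.42 and 3.96 in shoots beside ndhC at -0.63. In roots, 6 ndh genes had no 21-day wild-type array above background, and their bars are no exact differences.

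Over the 8 group means, the ndh genes differed in how closely they followed the others. The correlation with the mean of the other members was highest for ndhJ (Pearson r 0.991) and ndhE (0.988), lower for ndhF (0.888) and lowest for ndhC (0.732). These correlations describe 8 means, and the shared contrast of roots and shoots enters all of them. Among 57 other plastid-encoded genes the profiles most like the mean of the ndh genes were those of rps4 (r 0.998), psaJ (0.997), psbB (0.994), rps16 (0.992) and petA (0.992). They encode ribosomal proteins (rps4, rps16), a photosystem I subunit (psaJ), a photosystem II antenna protein (psbB) and cytochrome f (petA). Among 8070 nuclear probe sets they were AT5G42680 (r 0.997), AT5G59500 (0.995), AT3G01920 (0.994), AT1G28140 (0.994) and AT5G66090 (0.992).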

How the data were processed

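RNA of shoots and roots was hybridised to 16 ATH1 arrays, 2 in each of 8 groups. The authors deposited log2 MAS5 signals, per the submitters' processing notes and the values, and each array's trimmed mean (2% at each end) is 500 units. Labels give total RNA and biotin labelling by the standard Affymetrix protocol. Genes were named from the platform annotation and RefSeq (TAIR10.1), which gave 13513 probe sets 1 gene and 503 several. The other probe sets were given no gene name, so listed genes not counted as measured may still have a probe set on the array. Of 22810 probe sets, 64 controls were left out. The log2 signals were turned back to linear units, 8 units (the 10th percentile) were added, and log2 was taken again. limma 3.58.1 in R 4.3.3 fitted the 8 arrays of each experiment in 1 model of 4 groups (eBayes with an intensity trend) for probe sets with a mean above the 25th percentile. Folds are on this log2 scale unless given as bounds. Bounds set the geometric mean of the shoots against the background. On data simulated for the 7-week shoot comparison, 7.37% of changes of 1 log2 unit and 83.2% of changes of 3 units were recovered. For the hma2 hma4 shoot comparison 39.8% and 92.9% were. The simulated probe sets had the same mean in all 4 groups before a change was added, so they held no difference between roots and shoots. Alternatives were 2 normalizations, 2 pseudocounts, 2 filters, 2 variance models, other sets of arrays, a replicate block and each array left out. The members, lists and comparisons were chosen with earlier results of these data known. The genes named were all ndh genes, all measured members of the NDH and PGR5 lists, and the 5 plastid-encoded and 5 nuclear genes most like the ndh mean. The number of arrays limits the precision. No batch or scan record was used.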

Additional observations from a re-analysis of the deposited data

Results flagged for a closer look

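For 3 ndh genes, picked out for this pattern, both Zn-deficient arrays lay below both control arrays in shoots and above both in roots, without a call in either tissue. Of all probe sets tested, 21% lay lower without overlap in shoots and 17.6% lay higher without overlap in roots. The share of all probe sets with both is not given here, so the count of 3 has no background beside it. The changes in roots were 0.35 ± 0.38 for ndhE, 0.68 ± 0.38 for ndhJ and 0.20 ± 0.22 for ndhD (SE, log2), with adjusted p of 1 in limma. Since the genes were picked by these values, the test below is not independent of the choice. The interaction, roots minus shoots, was 1.69 ± 0.54 (SE, log2) for ndhE (unadjusted p 0.0124, adjusted p 0.408 in limma), 1.69 ± 0.54 for ndhJ (unadjusted p 0.0122, adjusted p 0.408) and 0.73 ± 0.31 for ndhD (unadjusted p 0.0432, adjusted p 0.548). None passed the threshold after adjustment over 17059 probe sets, where 0.0117% did. The 58 other plastid-encoded genes tested had interactions above 0 as well.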

How the results depend on the processing

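In 7-week shoots the count of ndh genes called with Zn deficiency was 1 in place of 0 under median centring, a pseudocount of 58, a filter at the 50th percentile and the replicate block, each time ndhG, and with all 16 arrays in 1 fit, then ndhE. The replicate block gave ndhG an adjusted p of 0.0393. Replicate numbers are shared by the groups but the labels tie nothing to them, so the numbers were not taken as pairs. Over all probe sets, same-numbered arrays deviated with correlations between -0.115 and 0.165 at 7 weeks and between -0.025 and 0.180 at 21 days. These correlations do not settle the matter for the ndh genes, which shared a direction in shoots. Replicate 1 was higher for 9 and 10 of 10 in 7-week Zn-deficient and control shoots, where 61.6% and 49.4% of all probe sets were. In 21-day hma2 hma4 and wild-type shoots it was higher for 1 of 10 each, where 46.1% and 52.4% were. Of the 59 other plastid-encoded genes, 43, 52, 15 and 27 were higher in replicate 1, in the same order. In both 7-week root groups replicate 1 was higher for 4 of 10 ndh genes, where 55.3% and 54.7% of all probe sets were. The replicate block used the same shift for roots and shoots. Pairs of shoot arrays alone were not tested. With the filter at the 50th percentile, 5 genes in place of 9 were called lower in roots in 21-day hma2 hma4 and 5 in place of 9 in wild type, since fewer were tested. With 1 array left out, the counts of genes called lower in roots were 9 to 10 in 7-week Zn-deficient plants, 8 to 10 in 7-week control plants, 7 to 9 in 21-day hma2 hma4 and 8 to 9 in 21-day wild type, and the counts for Zn deficiency, genotype and both interactions stayed at 0. A group left with 1 array was assumed to vary like the others of its experiment.

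Of 1443 values of single genes under other settings, 1389 kept direction and side of the threshold, 8 passed it newly, 7 no longer passed it and 39 changed sign, 0 of which were called on either side. The cause was not tested. Quantile normalization gave 0.0060 for ndhI with Zn deficiency in shoots, -0.025 for ndhG with Zn deficiency in roots, and 0.0037 for ndhH and 0.0012 for ndhI in hma2 hma4 shoots. Median centring gave -0.010 for ndhI and -0.010 for ndhG with Zn deficiency in roots, and 0.021 for ndhI and 0.017 for ndhE in hma2 hma4 shoots. With 1 array left out, Zn deficiency in roots gave -0.055 to 0.44 for ndhA, -0.13 to 0.22 for ndhI, -0.18 to 0.16 for ndhH, -0.061 to 0.15 for ndhG and -0.30 to 0.022 for ndhK. In hma2 hma4 shoots the ranges were -0.027 to 0.24 for ndhJ, -0.76 to 0.63 for ndhH, -0.069 to 0.0043 for ndhI, -0.44 to 0.37 for ndhE and -1.10 to 0.37 for ndhG. In hma2 hma4 roots they were -1.27 to 0.99 for ndhG, -0.44 to 0.054 for ndhD, -0.64 to 0.11 for ndhK, -0.033 to 0.41 for ndhI and -1.23 to 0.18 for ndhJ. For genotype by tissue they were -0.16 to 0.039 for ndhC, -0.00074 to 0.44 for ndhI, -0.91 to 1.35 for ndhG, -0.012 to 0.48 for ndhD, -1.34 to 0.073 for ndhJ and -0.064 to 0.74 for ndhE.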
